A study of Oryza sativa with 6 samples.

Results

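The 9 genes described here encode enzymes of flavonoid synthesis in rice, among them those that make tricin, a flavone that grasses build into lignin. They were taken as the array probes whose names start with 1 of 9 locus identifiers, which gave 19 probes out of 42418, for 9 of the 29690 loci on the array. Names follow the list that defined the set: chalcone synthase (CHS, Os11g0530600), chalcone isomerase (CHI, Os03g0819600), flavanone 3-hydroxylase (F3H, Os04g0662600), flavonoid 3'-hydroxylase (F3'H, Os10g0320100), dihydroflavonol reductase (DFR, Os01g0633500), anthocyanidin synthase (ANS, Os01g0372500) and the cytochromes P450 CYP93G1 (Os04g0101400), CYP93G2 (Os06g0102100) and CYP75B4 (Os10g0317900). The reference gene table bears out the names CHS and CHI on the chromosomes of these loci and does not hold the other names.

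Transcripts were measured on 1-colour arrays in the internode of wild-type rice of the cultivar Nipponbare and of Nipponbare plants in which OsCAld5H1 had been knocked out by CRISPR/Cas9. OsCAld5H1 encodes the coniferaldehyde 5-hydroxylase, the first step towards syringyl units in lignin. Both genotypes were sampled at heading, midway along the second internode counted from the top, after growth at 27 °C under 12 h days. Each had 3 biological replicates with 1 array apiece, and the knockout plants were T2 descendants of 1 edited line, so line and genotype cannot be told apart.

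Flavonoid synthesis starts when CHS condenses a coumaroyl-CoA starter, the thioester that also feeds monolignol synthesis, with malonyl-CoA, and CHI closes the resulting chalcone to the flavanone naringenin. In rice, CYP93G1 turns naringenin into the flavone apigenin, CYP75B4 hydroxylates the B ring, and an O-methyltransferase shared with syringyl lignin synthesis adds the methyl groups of tricin. CYP93G2 instead 2-hydroxylates flavanones on the way to C-glycosyl flavones. F3H opens the road to flavonols and anthocyanins, on which DFR and ANS act later and F3'H adds a hydroxyl to the B ring.

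Between 74.3% and 78.3% of gene spots per array were well above background, and 0 gene spots were saturated. All wild-type arrays sat on 1 slide and all knockout arrays on a second one, so the effects of slide and genotype cannot be told apart. Knockout replicate 1 stood apart from the other knockout arrays, correlating with them at 0.972 and 0.968 across probes, while those 2 correlated at 0.984. Values below are log2 signals minus the array's own 75th percentile unless given as intensity. Precision is limited by the number of arrays. The targeted transcript (Os10g0512400) stood at -0.54, -0.52 and -0.05 in wild-type replicates 1 to 3 and at -4.00, -1.78 and -1.23 in knockout replicates 1 to 3. Its difference of -1.97 ± 0.70 (SE) did not pass limma's test (adjusted p 0.205), and it was -1.14 without knockout replicate 1 (0.0651). The level of this transcript does not test the edit itself. Markers of a lignifying stem were present: the 3 secondary wall cellulose synthases and CAD2, and the 2 stem KNOX genes OSH1 and OSH15, were all well above background on all 6 arrays. So were the 3 markers of green tissue, whose summed level ran from 6.87 to 7.67 in wild-type and from 6.48 to 7.25 in knockout arrays. Singly, 2 had a lower mean in knockout and 1, Os12g0274700, a higher one. At its brightest probe Os12g0274700 was higher on every knockout array, by 1.58 (limma adjusted p 0.112), and at its other probes by 0.02 to 0.48 on average. Of 2 loci listed as glutelins of the grain, Os02g0249900 was not above background on any array, though the files annotate its probe to a transcript of another locus (Os02g0249800). The other, Os01g0762500, was on all 3 wild-type arrays and 1 of 3 knockout arrays at its brightest probe, and the sum of both ran from -5.59 to -4.23 in wild-type and from -7.23 to -6.38 in knockout. At that probe the difference was -2.18 (limma adjusted p 0.0511), and its other probes, above background on no knockout array, were called lower in knockout (0.0439 and 0.0113). All 3 probes of this locus were tested because the wild-type arrays were above background, which favours a lower knockout mean. No support is drawn from these calls. With normexp the differences at all 3 were -0.68 to -0.64. The part of these markers in the results below was not tested.

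The routes differed first in how many of their probes were well above background. Every probe of the tricin route was well above background on every array: 6 of 6 probes for CYP93G1 and CYP75B4, with intensities between 18372 and 50768. The same held for the 6 probes of the shared enzymes CHS and CHI and for both probes of CYP93G2. On the anthocyanin route it held for 1 of 5 probes, and the highest intensity among the 5 was 142. By spot, 36 of 36 measurements of the tricin route and 13 of 30 of the anthocyanin route were well above background. Over all loci, 69.8% were well above background on all 6 arrays at their brightest probe. Brightness also depends on the sequence of each probe, so no level of 1 gene is ranked against that of another here.

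**Figure D1:**
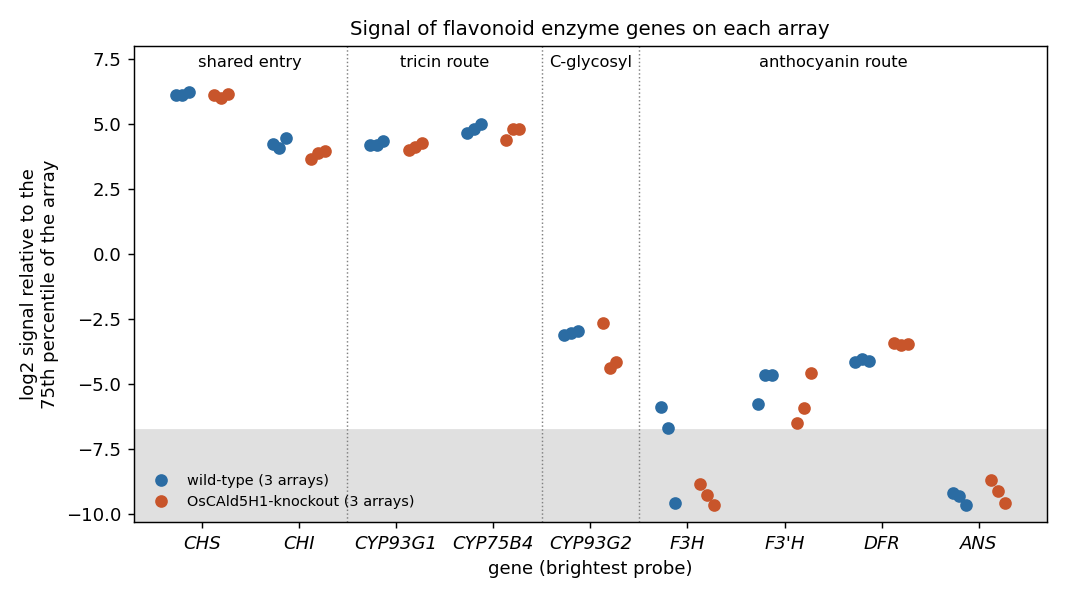
Signal of the brightest probe of each gene (log2, relative to the 75th percentile of the array), with 1 point per array, blue for wild-type and orange for knockout; the shaded area lies below -6.75, the highest of the 6 arrays' lowest signals called well above background. CHS, CHI, CYP93G1 and CYP75B4 lie far above the shading on every array, while ANS lies inside it on all 6; heights of different genes also reflect their probes.

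The entry enzymes were bright in both genotypes. CHS stood at 6.13, 6.11 and 6.24 in wild-type and 6.13, 6.02 and 6.14 in knockout replicates 1 to 3 at its brightest probe, an intensity of 99523 to 119658 in wild-type. The genotypes overlapped, with a difference of -0.06 ± 0.10 (SE, n = 3 per genotype; limma adjusted p 0.782), whose sign turned with quantile normalisation. Its other probes differed by -0.29 to -0.13, the lowest value being that of the one probe that covers the 5' UTR and start of the coding sequence. That probe read 1.32, 1.26 and 1.56 in wild-type and 1.12, 0.94 and 1.23 in knockout arrays. There, and at another CHS probe (difference -0.17), every knockout array lay below every wild-type array, though neither difference passed (adjusted p 0.330 and 0.421).

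CHI separated the genotypes at its brightest probe. It stood at 4.24, 4.08 and 4.45 in wild-type and at 3.64, 3.90 and 3.98 in knockout replicates 1 to 3. All knockout arrays thus lay below all wild-type arrays, as at 13.6% of tested loci. The difference was -0.42 ± 0.15 (SE; 95% interval -0.78 to -0.05), and limma's adjusted p over the whole array was 0.211, so it did not pass. The other CHI probe differed by -0.21 and its genotypes overlapped.

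The enzymes specific to tricin showed no difference that passed the test. CYP93G1, the flavone synthase, stood at 4.18, 4.18 and 4.34 in wild-type and 4.02, 4.10 and 4.25 in knockout replicates 1 to 3. Those ranges overlap, and the difference was -0.11 ± 0.12 (SE; limma adjusted p 0.662). At its other probe the values were 4.09, 4.05 and 4.22 against 3.68, 3.76 and 3.95, without overlap, and the difference of -0.32 ± 0.12 also did not pass (adjusted p 0.229). The 2 probes of this gene therefore disagree on whether the genotypes separate.

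CYP75B4, the B-ring hydroxylase of tricin synthesis, stood at 4.65, 4.81 and 5.01 in wild-type and 4.40, 4.81 and 4.80 in knockout replicates 1 to 3. Knockout replicate 1 was the lowest array and the others lay within the wild-type range. The difference was -0.15 ± 0.17 (SE; limma adjusted p 0.667), and -0.02 without knockout replicate 1. The array carries probes for 3 annotated transcripts of this locus, and the differences at its 4 probes ran from -0.15 to 0.02. Over the 6 probes of the tricin route, the 95% intervals together spanned 0.652-fold to 1.36-fold knockout over wild-type. Of these 6 probes, 5 were lower in knockout on average, 4 with normexp and 3 without knockout replicate 1, so their direction is not settled. The methylation step belongs to Os08g0157500, listed as CAldOMT1, which stood at 7.31, 7.13 and 7.14 in wild-type and 7.31, 7.37 and 7.34 in knockout arrays. Its difference was 0.15 ± 0.11 (SE; limma adjusted p 0.507), with -0.06 and -0.02 at its other probes.

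**Figure D2:**
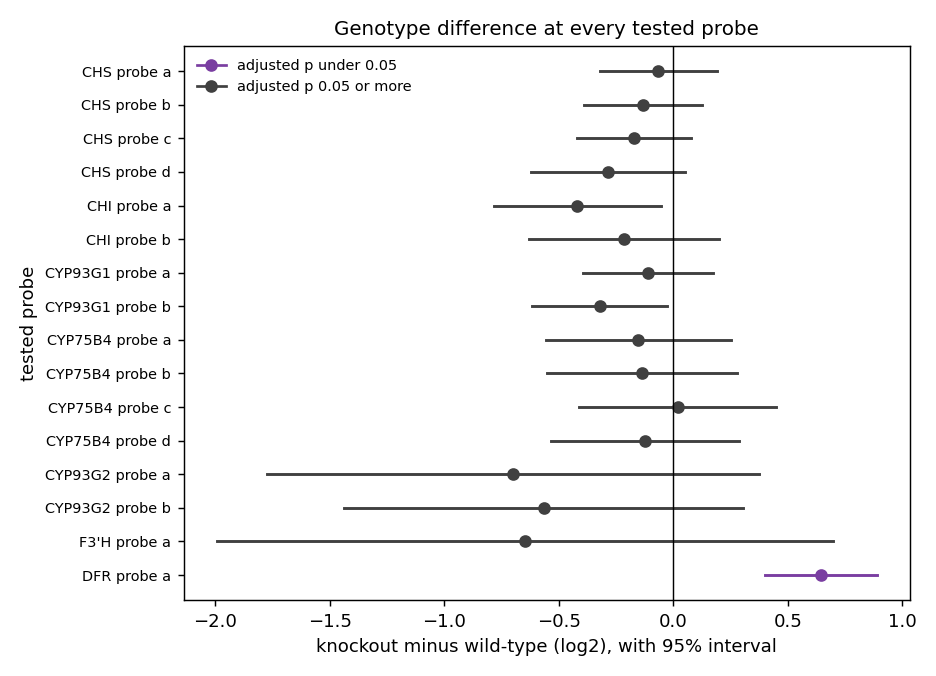
Knockout minus wild-type difference (log2) of each of the 16 tested probes, with its 95% interval from limma and 3 arrays per genotype; probe a is the brightest of its gene. The 6 probes of CYP93G1 and CYP75B4 lie between -0.32 and 0.02, and the DFR probe at 0.65 is the one past the threshold.

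CYP93G2, at the branch to C-glycosyl flavones, differed widely between the knockout arrays. It stood at -3.12, -3.02 and -2.93 in wild-type replicates 1 to 3 and at -2.66, -4.37 and -4.13 in knockout replicates 1 to 3. Knockout replicate 1 was thus the highest of all 6 arrays and the other knockout arrays the lowest. The second probe had the same order, at -3.61, -3.33 and -3.28 against -3.15, -4.53 and -4.23. At the brightest probe the SD was 0.09 over wild-type and 0.93 over knockout arrays. The medians over all tested probes were 0.13 and 0.25, so knockout arrays also spread more in general. Over all arrays the difference was -0.70 ± 0.44 (SE; limma adjusted p 0.449) and did not pass. Without knockout replicate 1 it was -1.23 with an adjusted p of 0.0207, and -0.98 with 0.0442 at the second probe. In that setting 1.87% of tested loci were called lower in knockout, against 1.24% with all arrays. Without knockout replicate 2 the difference was -0.37 (adjusted p 0.739) at the brightest probe. The call thus rests on which knockout arrays enter. Whether fewer cells of a type or less RNA per cell lies behind a lower signal cannot be told apart in whole internode tissue.

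Of the anthocyanin route, DFR was the one gene past the threshold. It stood at -4.15, -4.03 and -4.12 in wild-type and at -3.40, -3.50 and -3.47 in knockout replicates 1 to 3, an intensity of 80.0 to 94.7 against 139 to 142. Every knockout array lay above every wild-type array, as at 13.8% of tested loci. DFR rose by 0.65 ± 0.10 (log2, SE; 95% interval 0.40 to 0.89; 1.56-fold; limma adjusted p 0.0306). It was 1 of 7 tested genes of the set that passed, against 3.41% of all tested loci (3.16% of tested probes), and 2.17% of loci rose. The other DFR probe was not above background on any array, at -9.46, -9.49 and -8.21 in wild-type and -9.05, -9.47 and -9.87 in knockout, so the rise has no support from a second probe. Leaving out any 1 array but knockout replicate 1 ended the call, with adjusted p values of 0.149, 0.120 and 0.162 without wild-type replicates 1 to 3 and 0.0817 and 0.0505 without knockout replicates 2 and 3. So did dropping the filter on dim probes (0.0631), limma-trend (0.0536) and the replicate number as a block (0.116). Over the runs without 1 array, the DFR difference ran from 0.62 to 0.68. The probes called over the whole array ran from 143 to 1539 in those runs, against 1017 with all arrays. Of 5 control probes of the array's design bright enough to test, 4 were higher on every knockout array than on any wild-type array, by 0.30 to 1.54. The remaining probe, POsControl0005, had a lower mean in knockout (-0.45), with overlapping arrays. The part of these probes in the DFR signal was not tested.

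The other 3 of these genes were at or near background. F3H stood at -5.87, -6.67 and -9.56 in wild-type and -8.82, -9.25 and -9.64 in knockout replicates 1 to 3, and was well above background on wild-type replicates 1 and 2 alone. Its wild-type mean did not exceed the level that background allows in the knockout arrays, so no fold is given. F3'H, which acts on the B ring, stood at -5.74, -4.66 and -4.63 in wild-type and -6.50, -5.91 and -4.56 in knockout arrays. It was well above background on 5 of 6 arrays, and the genotypes overlapped (difference -0.65 ± 0.55, SE; limma adjusted p 0.575). It was tested because all 3 wild-type arrays were above background, which favours a lower knockout mean. The difference was -0.23 without knockout replicate 1, -1.20 without knockout replicate 3, -1.01 without wild-type replicate 1 and -0.32 with normexp. ANS was not well above background on any array, lying between -9.62 and -8.69, so no difference between genotypes can be given for it.

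**Figure D3:**
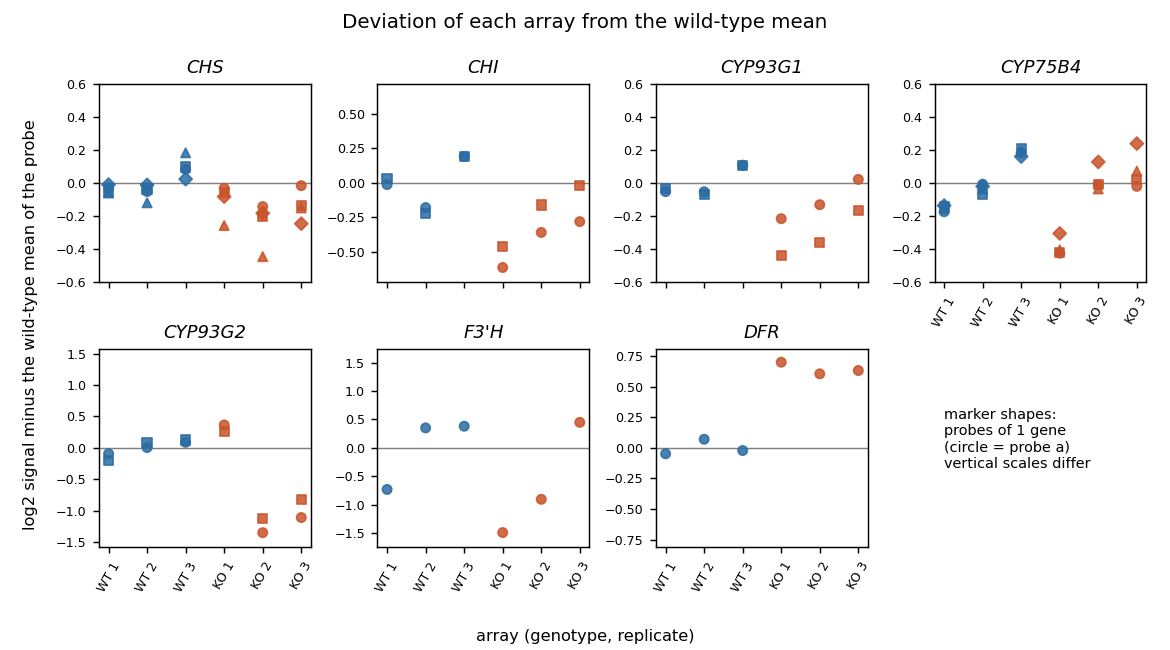
Deviation of each array from the wild-type mean of the same probe (log2) for the 7 tested genes, with blue wild-type and orange knockout arrays and 1 marker shape per probe; vertical scales differ between panels. Knockout replicate 1 is lowest at the brightest probes of CHI, CYP93G1, CYP75B4 and F3'H and highest for CYP93G2, while DFR is raised by a like amount on all 3 knockout arrays.

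Taken as a set, 7 of the 9 genes were tested, 1 rose, 0 fell and 6 did not pass. At an unadjusted p under 0.05 there were 2, CHI and DFR, against 19.6% of all tested loci. Of the 6 genes well above background on all arrays, 5 had a lower mean in knockout, or 4 with quantile normalisation, beside 49.8% of tested loci. Their median difference was -0.13, and that of all tested loci was 0.0014. F3'H, which entered the test through wild-type, is not counted there, and no support is drawn from the count. At 5 of the 16 tested probes the genotypes' arrays did not overlap, 4 of them lower in knockout, and at their brightest probes 2 of 7 genes did so against 27.4% of loci. Probes of 1 gene share a transcript and are not independent.

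**Figure D4:**
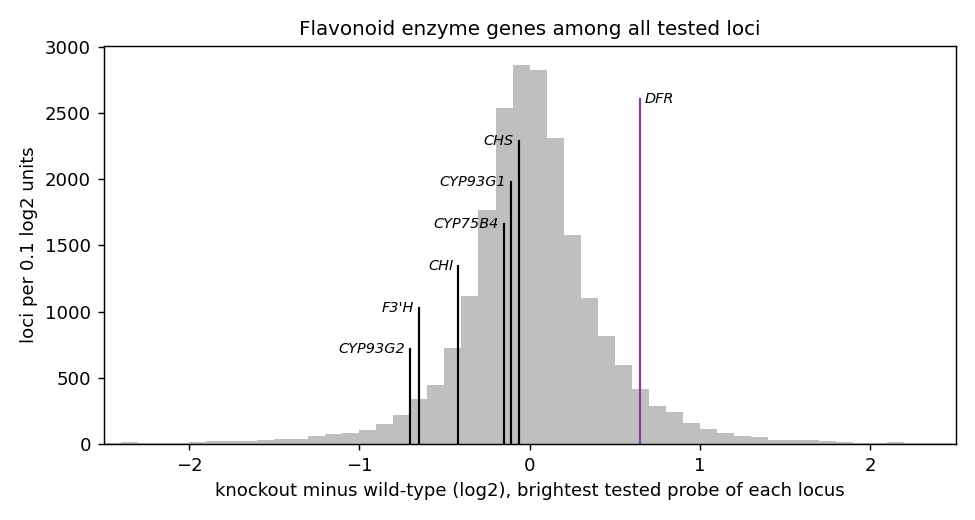
Histogram of the knockout minus wild-type difference (log2) of all tested loci at their brightest tested probe, in bins of 0.1, with lines at the 7 tested flavonoid genes (line height carries no value; the axis is limited to -2.5 to 2.5). CYP93G2 at -0.70, F3'H at -0.65 and DFR at 0.65 lie farthest from 0 of the 7, and 19.0% of all loci lie beyond 0.5 in either direction.

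The arrays also ranked alike across several genes. Wild-type replicate 3 was the highest of the 6 arrays at 11 of the 16 tested probes and for 4 of the 7 genes, against 10.1% of all tested loci. Knockout replicate 1 was the lowest at 9 of 16 probes and for 4 of 7 genes, against 23.6% of loci. It was also the highest at 3 of 16 probes and for 2 of 7 genes, against 25.8% of loci. F3'H, which entered the test through wild-type, is among the 4 genes lowest on that array, and no support is drawn from these counts. Profiles were compared over the 6 arrays by the root mean square difference of log2 values, each centred on its own mean. Among listed flavonoid loci, CYP75B4 was most like CYP93G1, at 0.115, and CYP93G1 most like CHS, at 0.0749. For scale, the SD over the 6 arrays was 0.205 for CYP75B4, 0.113 for CYP93G1 and 0.357 for DFR. Many other loci were closer: CHS ranked 290 among the 21794 loci set against CYP93G1, whose nearest were Os09g0133700 and Os06g0195600 at 0.0215 and 0.0266. For CYP75B4, Os01g0167700 and Os11g0242600 were nearest, at 0.0283 and 0.0348, and CYP93G1 ranked 483. For DFR the nearest were Os10g0404900 and Os05g0568800, at 0.0508 and 0.0531. The nearest listed locus to DFR was Os08g0157500 at 0.269, ranked 3178.

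To set the routes side by side, the mean of the tricin genes minus the mean of the 4 anthocyanin genes was taken on each array. Of those 4, F3H and ANS were mostly at background, so this ratio has no meaning as a level and its change is only a rough description. It changed by 0.28 from wild-type to knockout, less than the SD of the wild-type arrays (0.58), and the knockout values lay within the wild-type range. The change was 0.11 without wild-type replicate 1 or 2, 0.61 without wild-type replicate 3 and -0.05 with normexp. F3H, at -9.56 on wild-type replicate 3, enters both the change and that SD. The mean of all 4 anthocyanin genes changed by -0.41, while the median difference of the 2 tested, F3'H and DFR, was -0.0017. For the tricin genes it was -0.13, so the sign of the contrast depends on the genes at background. Unequal change of the routes was thus not shown, and as a score over chosen genes the ratio was not tested.

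A wider list of 15 other loci of flavonoid synthesis and its regulators was also examined, 14 of them on the array. Of these, 7 were well above background on all 6 arrays, 3 on some and 4 on none. All 7 bright loci were tested: 0 rose and 0 fell, against 2.17% and 1.24% of all tested loci. Their median difference was -0.12. At 2 of the 7, every knockout array lay below every wild-type array, as at 13.6% of tested loci. At an unadjusted p under 0.05 there was 1, against 19.6% of tested loci. That one was CHS2 (Os07g0214900), a second chalcone synthase, chosen here after its values were seen. It stood at 4.22, 4.13 and 4.30 in wild-type and 3.93, 3.77 and 3.95 in knockout arrays, without overlap, a difference of -0.33 ± 0.11 (SE; limma adjusted p 0.188). Signal of CHS and CHS2 may be shared where the copies are alike, since probe sequences were not used here. Of the wider list's loci assigned to the anthocyanin route, Os10g0536400, listed as another F3H, was well above background on all 6 arrays. Its intensity ran from 172 to 1730, and its difference was 0.72 ± 0.86 (SE; limma adjusted p 0.697), with overlapping genotypes, and 1.63 without knockout replicate 1. ANS2 (Os06g0626700), a second anthocyanidin synthase, was above background on 1 of 6 arrays, and Os04g0667200, listed as a further F3H, on none. These 3 were named after their values were seen.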

How the data were processed

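The members and lists were chosen with earlier results of these data known. Cy3-labelled RNA (0.1 µg total RNA per sample, per the labels' protocols) was hybridised to an Agilent rice array. Per the file headers, the deposited scanner files give a processed intensity from which Agilent Feature Extraction 12.0.3.1 had subtracted background and spatial trend. The same software is named in the submitters' processing notes. The files also give the median intensity of spot and surroundings, and flags (other values, per the file headers). The authors' deposited value table holds the same processed intensity times 1 constant per array (1.51 to 1.72, column medians 376 to 388). It is linear and uncentred; the choice of constants is not stated there.

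Signals were taken as log2 of the processed signal minus the 75th percentile over all spots of control type 0. These were 43734 gene spots and the spots of design control probes. Then 590 spots of design control probes and outlier spots (5 to 9 gene spots per array) were removed, and repeated spots averaged. A probe was tested if more than 0.5 of its spots were well above background on all 3 arrays of a genotype and both genotypes had 2 or more measured arrays. limma 3.58.1 in R 4.3.3 was fitted to 32135 probes with genotype as the one term. Tests were two-sided, with Benjamini-Hochberg adjustment over all probes and a threshold of 0.05. The brightest tested probe stood for a locus. All 9 members were named, with their other probes; of the wider list, the rule named loci past the threshold (none) and Os08g0157500, and 4 more were named after their values were seen. The fit was also run on simulated data, whose outcome is not given here, so no call draws support from it. Alternatives covered background correction (normexp, offset 50, on the median signal), normalisation, the authors' values, filters, outlier spots, a replicate block, limma-trend, array weights, the mean of a locus's probes and leaving out each array. Gene and probe coordinates and sequences were not used here.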

Additional observations from a re-analysis of the deposited data

Results flagged for a closer look

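Spots that the array's makers added as controls were not among the genes tested. Of 5 such probes bright enough to test, 4 had a higher signal on every knockout array than on any wild-type array. The same held at 13.8% of tested loci. This is a signal in data that the comparisons do not use. The remaining probe, POsControl0005, had a lower mean in knockout (-0.45), with overlapping arrays. Either genotype alone can meet the brightness rule, and no support is drawn from this count. POsControl0001 was higher by 0.56, POsControl0016 by 0.52, POsControl0021 by 1.54 and PZmControl0003 by 0.30 (log2). Their wild-type means were -3.93, -6.90, -3.71 and -6.67 in the same order. Their part in the DFR call was not tested.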

How the results depend on the processing

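The count of probes called over the array was 1017. It fell to 645 without a filter on dim probes and to 458 with the replicate number as a block, and ran from 143 to 1539 when 1 array was left out. For the flavonoid genes, the 1 call (DFR) became 0 without a filter (adjusted p 0.0631), with limma-trend (0.0536) and with the replicate block (0.116). It ran from 0 to 1 when 1 array was left out, and the count of genes called lower ran from 0 to 1, the 1 being CYP93G2 without knockout replicate 1. Same-numbered arrays deviated together in 2 of 3 pairs (correlations 0.41, -0.17 and 0.16). Deviations from the mean of 3 arrays are not independent, so these values cannot decide whether the numbers pair the samples. The main fit did not pair them. The CHS difference turned to 0.016 with quantile normalisation, and the contrast of routes turned to -0.048 with normexp. The cause of these changes was not tested. Some settings also use fewer arrays or another set of probes. CHI, CYP93G1, CYP75B4 and F3'H kept their direction and did not pass under any alternative run. F3'H was not tested under the stricter filter. The targeted gene also kept its direction and did not pass.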
